A study of Rattus norvegicus with 12 samples.

Results

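Interleukin-6 and its relatives are cytokines, short-range protein signals that neurons, glia and immune cells exchange after injury. The set described here holds 10 genes of this pathway in rat dorsal root ganglia: the ligands Il6, Lif, Cntf and Clcf1, the receptor genes Il6r, Il6st, Lifr, Osmr and Cntfr, and the transcription factor Stat3. The genes were chosen by name, and all 10 were found among the 29622 genes tested. Of these 10, 9 carried the listed name on the array, and Il6r was listed as Il6ra and matched through its transcript. Together they had 12 probes, with 2 each for Clcf1 and Stat3, and a gene with 2 probes was represented by the brighter. Of the 10 genes, 8 were well above background on all 12 arrays. Cntfr was well above background on 9 arrays and Il6 on 3, so these 2 genes entered the tests only through the times at which they were detected.

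The ganglia came from male Sprague-Dawley rats of 180 to 220 g at 0.5, 3, 6 or 9 h after 1 cm of the left sciatic nerve had been removed under anaesthesia, and expression was measured on 1-colour microarrays. The ganglia were those of lumbar levels L4-6. There were 24 rats, 6 for each time, and each time had 3 arrays. Every group was injured and none was uninjured, so each comparison sets a later time after surgery against an earlier one. How the 6 rats of a time were spread over its 3 arrays is not stated, so the p-values rest on a spread between arrays that may be technical.

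The tissue label was checked against 10 markers of sensory neurons, of which 9 were tested, and each of the 9 was detected on every array. Their mean level lay between 5.12 and 5.43 on every array. Levels here are log2 signals relative to the 75th percentile of the same array, so that 0 is that percentile. All 7 skeletal muscle markers were also detected on every array, with means from 1.93 to 5.49. On replicate 2 of 6 h the muscle mean (5.49) exceeded the neuron mean (5.20). Of 5 fat markers 3 were tested, with means from -2.98 to 0.45. The part of muscle and fat in the results was not tested. The share of probes detected well above background was 63.2 to 67.5% at 0.5 h and 82.3 to 85.3% on the other arrays, and the median local background was 64 to 86 at 0.5 h and 37 to 45 intensity units elsewhere. Arrays of 0.5, 3 and 9 h each lay on a slide of their own, and those of 6 h on 2 further slides. The 3 and 6 h arrays shared a scan day, while 0.5 h and 9 h each had a day of their own. No slide held 2 times, so slide and time cannot be told apart in any comparison, and scan day and time cannot be told apart in any but 6 h versus 3 h. Ganglia are mixed tissue, in which fewer cells of a type and less RNA per cell cannot be told apart.

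Cytokines of this family bind receptor complexes that share the signalling chain gp130, the product of Il6st. Il6 first binds its own receptor (Il6r) and Cntf and Clcf1 bind the Cntf receptor (Cntfr), while Lifr and Osmr are signalling chains that pair with gp130. Janus kinases bound to these chains then phosphorylate Stat3, which moves to the nucleus and switches on genes, among them Socs3, the main inhibitor of the same receptors. In peripheral nerve, Cntf is known as a product of Schwann cells, and Lif and Stat3 are known for their part in the injury response of sensory neurons. Array probes measure messenger RNA only, and phosphorylation of Stat3 was not measured.

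The probes of Il6 and Cntfr and the proximal of the 2 Stat3 probes are shown because these genes were called over the 4 times. The distal Stat3 probe, on which the calls of that gene rest, is described by its position with the Stat3 results. The Il6 probe, on rn4 chr4:457279-458563 (minus strand), and the Stat3 probe nearer the start of the transcript, on chr10:89823819-89824169 (minus strand), each span an intron in the genome. The Cntfr probe lies on chr5_random:841309-841368 (plus strand). Each is printed 5′ to 3′ as the files give it.
Il6 probe: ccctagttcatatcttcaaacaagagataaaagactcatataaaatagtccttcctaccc
Cntfr probe: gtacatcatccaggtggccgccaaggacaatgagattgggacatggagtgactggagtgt
Stat3 proximal probe: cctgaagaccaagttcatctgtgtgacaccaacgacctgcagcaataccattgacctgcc

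The 250 bases before the RefSeq start of Il6 (assembly GRCr8, chr4:5894576-5894825, minus strand) are shown because Il6 had the largest difference among the 10 members. Capitals mark a match to the cyclic AMP response element TGACGTCA, which begins 162 bases before the start and occurs in 1.83% of 33465 rat promoter windows of 300 bases. They also mark a match to the kappaB consensus, which begins 68 bases before the start and occurs in 7.52% of these windows.
Il6 upstream region: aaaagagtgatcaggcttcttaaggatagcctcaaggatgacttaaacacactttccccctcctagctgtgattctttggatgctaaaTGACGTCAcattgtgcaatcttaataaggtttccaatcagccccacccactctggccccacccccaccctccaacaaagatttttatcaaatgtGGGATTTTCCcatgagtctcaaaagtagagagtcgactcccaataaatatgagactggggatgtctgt
Both strands were searched in the windows of the 7 members that the table holds (all but Lif, Clcf1 and Cntfr). The STAT element TTCNNNGAA was not found in any of these 7 windows and occurs in 8.87% of all windows. The window of Il6st also held a kappaB match, which begins 1 base before the RefSeq start. A match is a string of letters and does not show that a factor binds there.

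The members were not called more often than all genes, and Cntfr was the only receptor gene called with the settings used here. A moderated F test (limma, Benjamini-Hochberg adjustment over all genes) called 3 of the 10 members, Il6, Cntfr and Stat3, against 44.2% of all genes. Relative to 0.5 h, 2 members were called lower at 3 h (Il6 and Stat3) and none higher, beside 23.2% of all genes called (10.7% higher, 12.5% lower). The comparison of 6 h with 0.5 h called Il6 alone, as lower, beside 13.4% of genes (4.01% higher, 9.43% lower). Cntfr was called higher and Stat3 lower at 9 h than at 0.5 h, beside 33.3% of genes (22.4% higher, 10.9% lower). Stat3 was called higher at 6 h than at 3 h, beside 11.3% of genes (5.71% higher, 5.58% lower). Il6 and Cntfr were called higher at 9 h than at 6 h, beside 25.1% of genes (19.1% higher, 5.94% lower). Il6 and Stat3 were called higher at 9 h than at 3 h, beside 23.2% of genes (16.6% higher, 6.61% lower). In each of these comparisons the members' share of calls in either direction was below that of all genes. With 10 members, 1 more call would have put the share above in all but 9 h versus 0.5 h. The lower share is therefore not read as a trait of the set. The median log2 difference of the 10 members was 0.15 at 9 h versus 6 h, where the median of all genes was 0.11. It was 0.27 at 9 h versus 3 h, where the median of all genes was 0.08. At 3 h versus 0.5 h and 6 h versus 3 h it was -0.08 and -0.13, below the 0.03 and -0.08 of all genes. Relative to 0.5 h it was 0.03 at 6 h and 0.14 at 9 h, where all genes had -0.04 and 0.10.

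**Figure D1:**
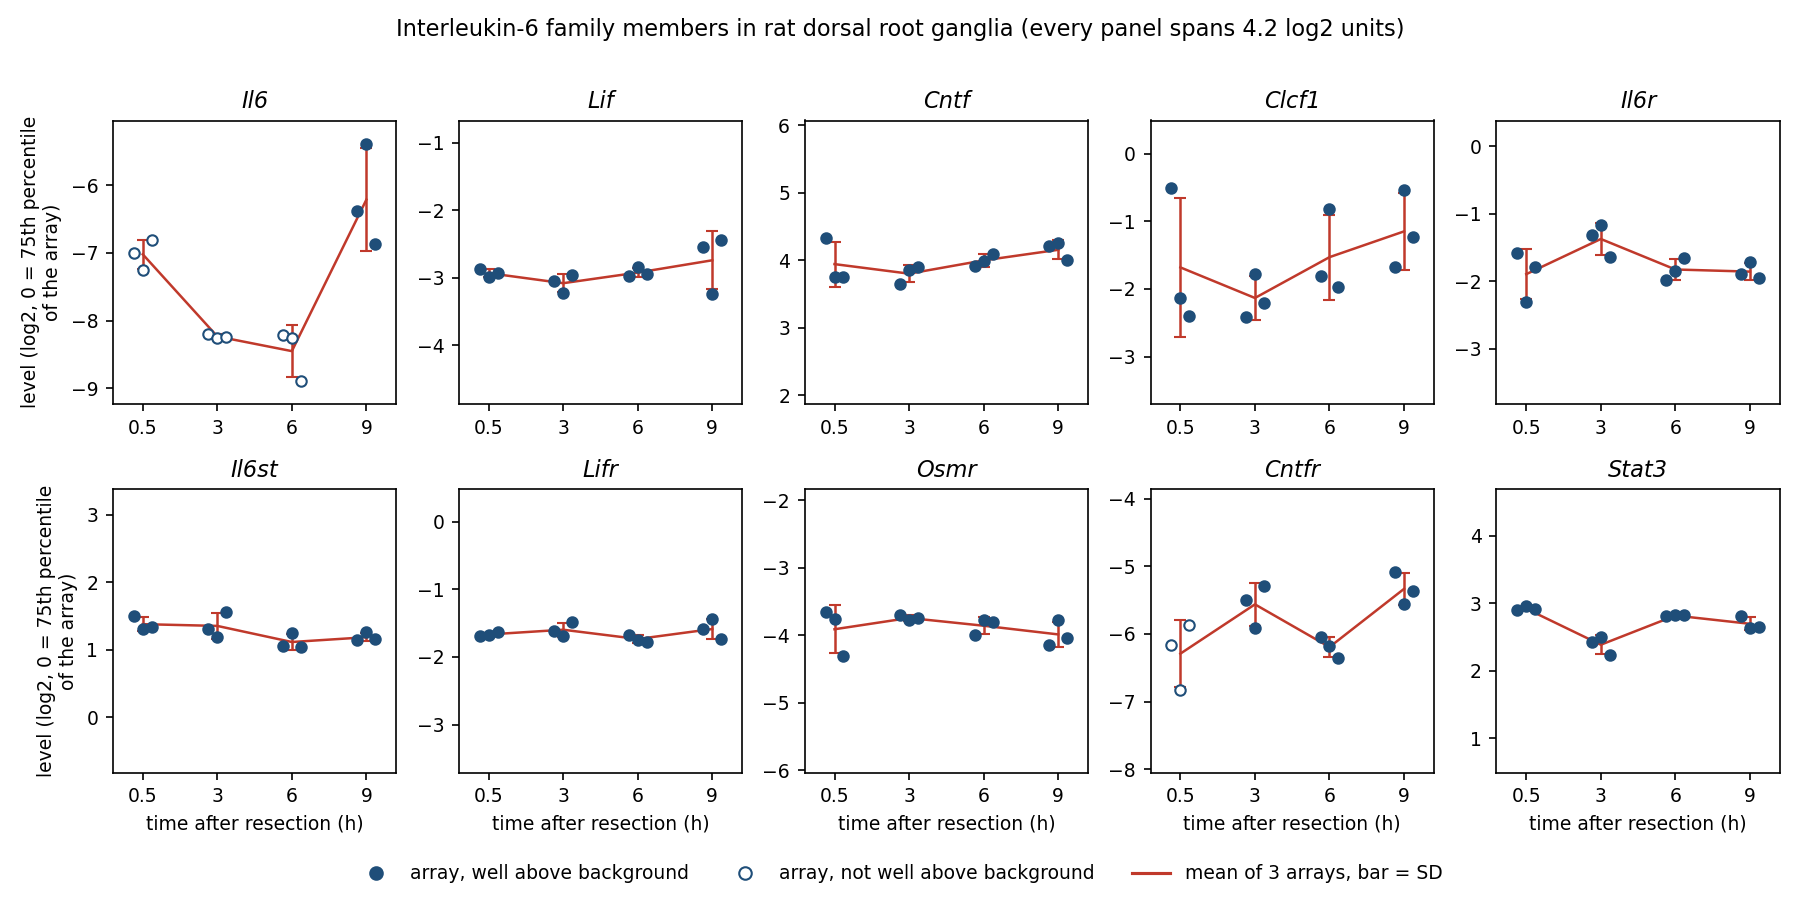
Levels of the 10 members (log2, vertical axis, 0 is the array's 75th percentile) at 4 times after resection (h, evenly spaced on the horizontal axis), with 1 point per array, filled where the probe was well above background, and the mean of 3 arrays with its SD. Il6 was well above background only at 9 h, Cntfr at 3, 6 and 9 h, and the other 8 members on all 12 arrays.

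Il6, the cytokine that gives the family its name, was detected only at 9 h. Its signal was 15.4, 12.7 and 16.9 intensity units at 0.5 h, 6.73, 7.33 and 5.99 at 3 h, 7.19, 6.23 and 4.84 at 6 h, and 24.6, 48.3 and 19.9 at 9 h. The 3 arrays of 9 h were the highest of the 12, and they did not overlap with any earlier time on the intensity scale. The array carries 10 spots of this probe. At 9 h, 9 of 9 usable spots, 10 of 10 and 6 of 10 were well above background, and no spot was on any of the 9 earlier arrays. On replicate 3 of 9 h, Il6 was the dimmest of all probes that counted as well above background.

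Il6 was higher at 9 h than at 6 h (mean levels -6.21 ± 0.76 and -8.45 ± 0.38, SD, n = 3 each), by 2.30-fold with the 6 h arrays set at a detection floor. The measured log2 difference was 2.24 (SE 0.33, limma adjusted p = 0.000681). Against 3 h, set at its floor, Il6 was 1.85-fold higher at 9 h (mean levels -6.21 ± 0.76 and -8.24 ± 0.03). The measured log2 difference was 2.02 (SE 0.33, limma adjusted p = 0.00192). These folds set the dim time at the lowest signal that counted as well above background on each array. An undetected probe can lie above that signal, so the folds are not strict lower bounds, and they carry no sampling error. Il6 passed the detection filter only through its 9 h arrays, so the p-values at 9 h are not independent of that filter. Without the filter both differences were still called. Both calls were also kept whichever of the 12 arrays was left out, with differences of 1.83 to 2.57 versus 6 h and 1.61 to 2.35 versus 3 h. Under quantile scaling the difference from 3 h was 1.08 and no longer called (limma adjusted p = 0.0509). Normexp background correction ended both calls (limma adjusted p = 0.895 versus 6 h and 0.276 versus 3 h). With its local background capped, an alternative chosen after seeing the data, both were called at the smaller sizes of 0.42 and 0.39. With low signals set to a common floor all Il6 values lay at the floor, and the difference could not be measured.

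The Il6 difference of 9 h from 0.5 h was 0.81 (SE 0.33) and was not called (limma adjusted p = 0.0833), with mean levels of -6.21 and -7.02 and arrays that overlapped after scaling. Quantile scaling made it 1.78 (limma adjusted p = 0.00391). No fold against a detection floor can be given, because the lowest detectable signal on the 0.5 h arrays lay above the Il6 level at 9 h. The fit also called Il6 lower at 3 h and at 6 h than at 0.5 h, by -1.22 (limma adjusted p = 0.0248) and -1.43 (0.0196). None of the arrays of these 3 times showed Il6 well above background. Both differences became positive under quantile or cyclic loess scaling, and the higher background of the 0.5 h arrays moved with these differences. Its part in them was not tested.

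Markers of neutrophils, white blood cells that enter injured tissue, lay higher on all 9 h arrays than on all 3 h arrays. The mean level of the 6 neutrophil markers was -3.19 to -2.36 at 0.5 h, -3.40 to -2.80 at 3 h, -2.92 to -0.07 at 6 h and -2.27 to -1.60 at 9 h. The highest single value belonged to replicate 3 of 6 h, the array with the lowest Il6 signal. Of the 6 markers, S100a8, S100a9 and Camp were detected on every array. The mean of the 7 macrophage and monocyte markers was -0.71 to -0.40 at 0.5 h, -0.97 to -0.17 at 3 h, -0.68 to -0.23 at 6 h and -0.49 to -0.08 at 9 h. Of 5 lymphocyte markers 3 were tested, with 1 detected on every array, and their mean was -4.68 to -4.45 at 0.5 h, -4.32 to -4.10 at 3 h, -4.40 to -3.18 at 6 h and -3.89 to -3.43 at 9 h. All 9 h arrays lay above all arrays of 3 h and 0.5 h in these markers. The part of these cells in the Il6 difference was not tested.

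Lif, leukemia inhibitory factor, was measured on every array, and none of its differences was called. Its signal was 269, 243 and 247 intensity units at 0.5 h, 230, 216 and 230 at 3 h, 254, 258 and 278 at 6 h, and 346, 212 and 359 at 9 h. Replicates 1 and 3 of 9 h were the highest of the 12 arrays and replicate 2 of 9 h was the lowest. Its difference between 9 h and 6 h was 0.18 (SE 0.18, limma adjusted p = 0.486). Without replicate 2 of 9 h it was 0.43 (limma adjusted p = 0.00991), and Lif was then also called higher versus 3 h (0.59) and 0.5 h (0.44). The array left out had the highest Il6 signal of the 12.

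Cntf, ciliary neurotrophic factor, gave signals of 24049 to 39479 intensity units. Its level was 4.32, 3.75 and 3.75 at 0.5 h, 3.65, 3.85 and 3.89 at 3 h, 3.91, 3.98 and 4.09 at 6 h, and 4.21, 4.26 and 3.99 at 9 h. All arrays of 9 h lay above all arrays of 3 h, but the difference of 0.35 (SE 0.15; means 4.15 ± 0.14 and 3.80 ± 0.13, SD, n = 3 each) was not called (limma adjusted p = 0.125). Replicate 1 of 0.5 h was the highest of the 12 arrays and stood apart from both other arrays of that time. The 5 Schwann cell markers averaged 5.05 on that array, 5.03 on replicate 2 of 9 h, the highest Cntf level of that time, and 4.48 to 4.65 at 3 h, and their part in the Cntf levels was not tested. Without replicate 1 of 0.5 h, Cntf was called higher at 9 h versus 3 h (limma adjusted p = 0.025) and versus 0.5 h (0.40, limma adjusted p = 0.0212). The probe has 10 spots on the array, and their SD within an array was 0.05 to 0.11.

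Clcf1, a cytokine that signals through the Cntf receptor, varied most between arrays of 1 time. Its brighter probe had signals of 1386, 439 and 358 intensity units at 0.5 h, 359, 591 and 388 at 3 h, 572, 1055 and 549 at 6 h, and 636, 1376 and 830 at 9 h. Replicate 1 of 0.5 h, replicate 2 of 6 h and replicate 2 of 9 h stood above the others, and the other Clcf1 probe was likewise highest on these arrays within their times, at 43.6, 34.8 and 62.5. That probe was well above background on 8 of 12 arrays and on none of 0.5 h, so its 43.6 was not a detected signal. By the brighter probe, the 9 h arrays did not overlap with the 3 h arrays, and that difference was 0.99 (SE 0.51, limma adjusted p = 0.197). No Clcf1 difference was called for either probe. The mean level of 5 Schwann cell markers was 5.05 on replicate 1 of 0.5 h, 4.61 on replicate 2 of 6 h and 5.03 on replicate 2 of 9 h, and 4.48 to 4.76 on the other 9 arrays. The part of Schwann cells in these values was not tested.

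**Figure D2:**
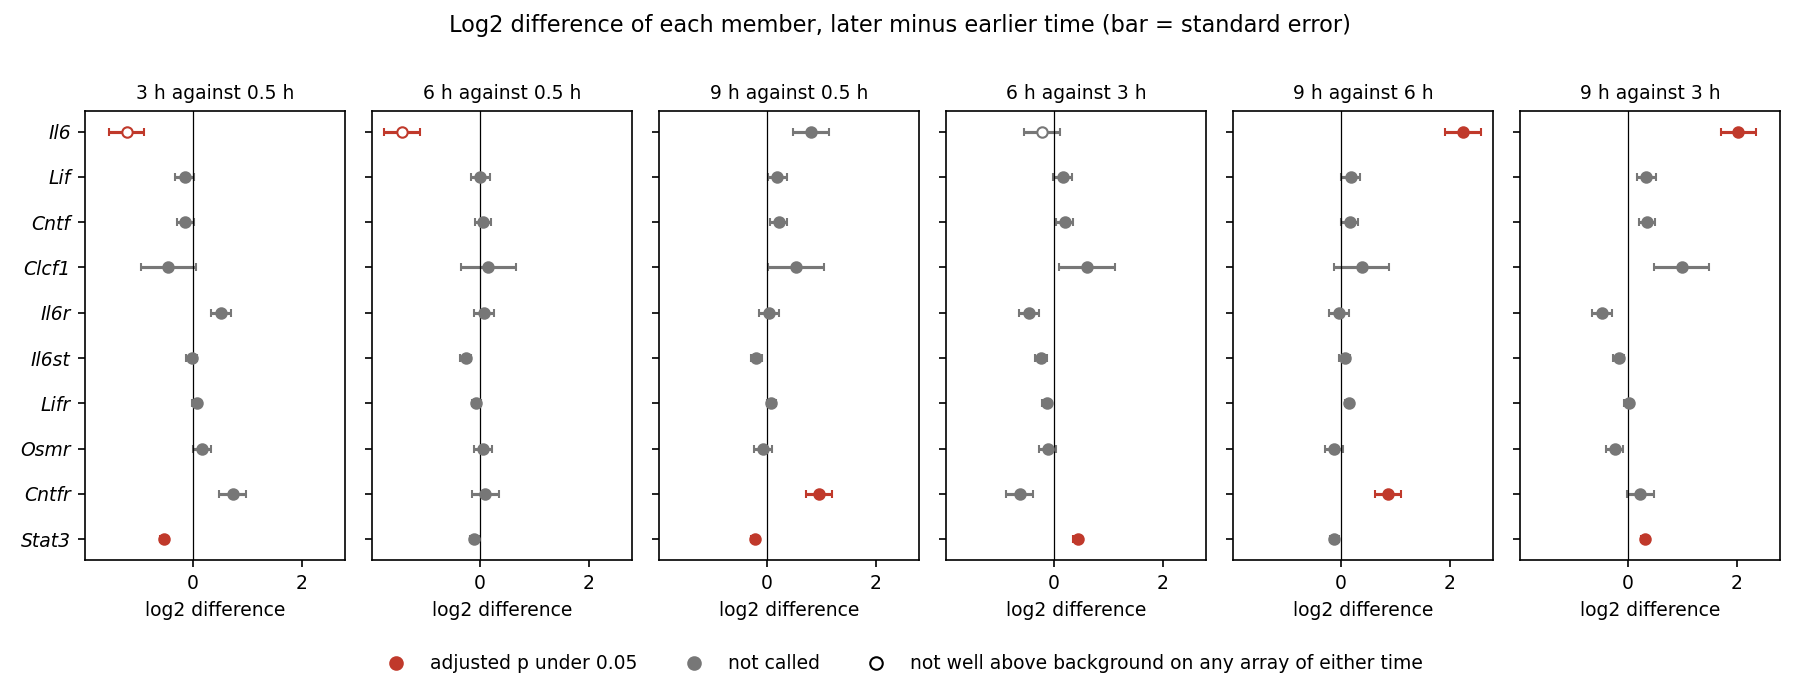
Log2 difference of each member (horizontal axis, later minus earlier time, bar is the standard error) in the 6 comparisons, red where the limma adjusted p was under 0.05 and open where no array of either time showed the gene well above background. The 2 open red points are Il6 at 3 h and 6 h versus 0.5 h, and the 2 largest filled ones are Il6 at 9 h versus 6 h and 3 h.

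Il6st, which encodes the shared chain gp130, stayed within 0.52 log2 units over the 12 arrays. Its mean level was 1.38 ± 0.11 at 0.5 h, 1.36 ± 0.19 at 3 h, 1.12 ± 0.12 at 6 h and 1.19 ± 0.06 at 9 h (SD, n = 3 each). The arrays of 6 h lay below those of 0.5 h, by -0.26 (SE 0.10), and this was not called (limma adjusted p = 0.12). Lifr, the Lif receptor chain, was the steadiest member, with a range of 0.33 over the 12 arrays and signals of 548 to 733 intensity units. Its 6 differences lay between -0.14 and 0.15, with an SE of 0.08. Osmr, the oncostatin M receptor chain, had signals of 95.1 to 156 intensity units and differences of -0.24 to 0.17 (SE 0.16). None of the Il6st, Lifr or Osmr differences was called. The F test called Il6st under median scaling (limma adjusted p = 0.0283) and with slide as a random block (0.0189), and Osmr under quantile scaling (0.0322). Slide as a random block called 21904 of the 29622 genes by that test, against 13085 without it.

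Il6r, which binds Il6 itself, was highest at 3 h without passing the test. Its signal was 658, 389 and 544 intensity units at 0.5 h, 764, 906 and 575 at 3 h, 510, 515 and 678 at 6 h, and 544, 605 and 503 at 9 h. The 3 h arrays overlapped with those of 0.5 h on this scale, since replicate 3 of 3 h lay below replicate 1 of 0.5 h. The difference at 3 h versus 0.5 h was 0.52 (SE 0.19, limma adjusted p = 0.0697), and at 9 h versus 3 h it was -0.48 (SE 0.19, limma adjusted p = 0.0893). These were called under 4 and 3 of 26 alternatives, median scaling and slide as a random block among them, and the F test called Il6r under the same 2 (limma adjusted p = 0.0449 and 0.00823). Of the 29622 genes, the F test called 14926 and 21904 under these 2, against 13085 with the settings used here.

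Cntfr, the receptor that binds Cntf and Clcf1, was dim and highest at 9 h. Its signal was 27.4, 16.9 and 32.3 intensity units at 0.5 h, 42.4, 33.9 and 46.0 at 3 h, 30.3, 25.6 and 26.3 at 6 h, and 60.1, 42.6 and 47.2 at 9 h. The arrays of 9 h did not overlap with those of 6 h or 0.5 h, and they overlapped with those of 3 h. Between 9 h and 6 h the log2 difference was 0.86 (SE 0.24, limma adjusted p = 0.0273), with mean levels of -5.33 ± 0.24 and -6.19 ± 0.15 (SD, n = 3 each). This call was lost without replicate 2 or 3 of 6 h or replicate 1 or 3 of 9 h (limma adjusted p = 0.0619 to 0.0945), and under quantile, median and cyclic loess scaling, where the difference was 0.26, 0.65 and 0.39. It was also lost under normexp with and without the cap and at the common floor, and was kept under 15 of 25 alternatives.

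Between 9 h and 0.5 h the Cntfr difference was 0.96 (SE 0.24, limma adjusted p = 0.0143), with mean levels of -5.33 ± 0.24 and -6.29 ± 0.49. This call was lost under quantile scaling (0.25, limma adjusted p = 0.479), in a fit of only the 6 arrays compared (0.0505), under normexp with and without the cap, and at the common floor. It was kept under 20 of 25 alternatives. No 0.5 h array showed Cntfr well above background, and since the detection limit of those arrays lay above its 9 h level, no bound on the fold can be given. Cntfr passed the detection filter only through the later times, so this p-value is not independent of that filter. Without the filter the difference was still called. The 0.5 h arrays also had a higher local background, and its part in this difference was not tested. At 3 h versus 0.5 h the Cntfr difference was 0.73 (SE 0.24) with arrays that overlapped, and it was not called (limma adjusted p = 0.0559). It was called under 7 of 25 alternatives, median and cyclic loess scaling among them. In the order of mean levels, 9, 3, 6 and 0.5 h, no neighbouring pair of times was called.

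Stat3 was measured by 2 probes that moved in opposite directions. The brighter probe lies toward the end of the transcript (position 4303, rn4 chr10:89821145-89821204, minus strand), and the other at position 2320. The distal probe gave 14626, 14906 and 14191 intensity units at 0.5 h, 10249, 11510 and 8385 at 3 h, 14102, 13033 and 15149 at 6 h, and 14178, 12368 and 12219 at 9 h. All 3 h arrays lay below every other array. The proximal probe gave 6796, 6763 and 6165 at 0.5 h, 8722, 8162 and 9167 at 3 h, 6969, 6705 and 6435 at 6 h, and 9182, 7752 and 7115 at 9 h. All 3 h arrays lay above every array of 0.5 h and 6 h.

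By the distal probe, Stat3 was lower at 3 h than at 0.5 h by -0.53 (SE 0.08, limma adjusted p = 0.00138), and higher at 6 h than at 3 h by 0.43 (SE 0.08, limma adjusted p = 0.00667). By the proximal probe the same differences were 0.42 (SE 0.11, limma adjusted p = 0.0256) and -0.44 (SE 0.11, limma adjusted p = 0.0351). Between 6 h and 3 h, which shared a scan day, both probes were thus called, with opposite signs. The mean of both probes differed by -0.06 between 3 h and 0.5 h (limma adjusted p = 0.595) and by -0.0031 between 6 h and 3 h (0.984). The direction of Stat3 messenger RNA as a whole at 3 h is therefore not settled by these arrays.

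At 9 h the distal probe was lower than at 0.5 h by -0.22 (SE 0.08, limma adjusted p = 0.0496), a call that was lost in 9 of 12 fits that left out 1 array. It was higher than at 3 h by 0.31 (SE 0.08, limma adjusted p = 0.0171), a call lost without replicate 1 of 9 h (limma adjusted p = 0.0522) and under median scaling (0.12, limma adjusted p = 0.341). The proximal probe differed by 0.23 (limma adjusted p = 0.139) from 0.5 h and by -0.18 (0.279) from 3 h. Neither probe was called between 9 h and 6 h.

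The log2 ratio of the distal to the proximal Stat3 probe was 1.15 ± 0.05 at 0.5 h, 0.20 ± 0.31 at 3 h, 1.07 ± 0.15 at 6 h and 0.69 ± 0.08 at 9 h (SD, n = 3 each). At 3 h it was 0.23, 0.50 and -0.13, below every other array, and the 9 h values lay between those of 3 h and those of the other 2 times. The ratio was looked at because the probes had been seen to differ, so it is given as a description. Opposite calls from a gene's 2 brightest probes were not rare on these arrays. Of 274 genes with both probes called at 3 h versus 0.5 h, 66 (24.1%) had opposite signs, and at 6 h versus 3 h it was 17 of 94 (18.1%).

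**Figure D3:**
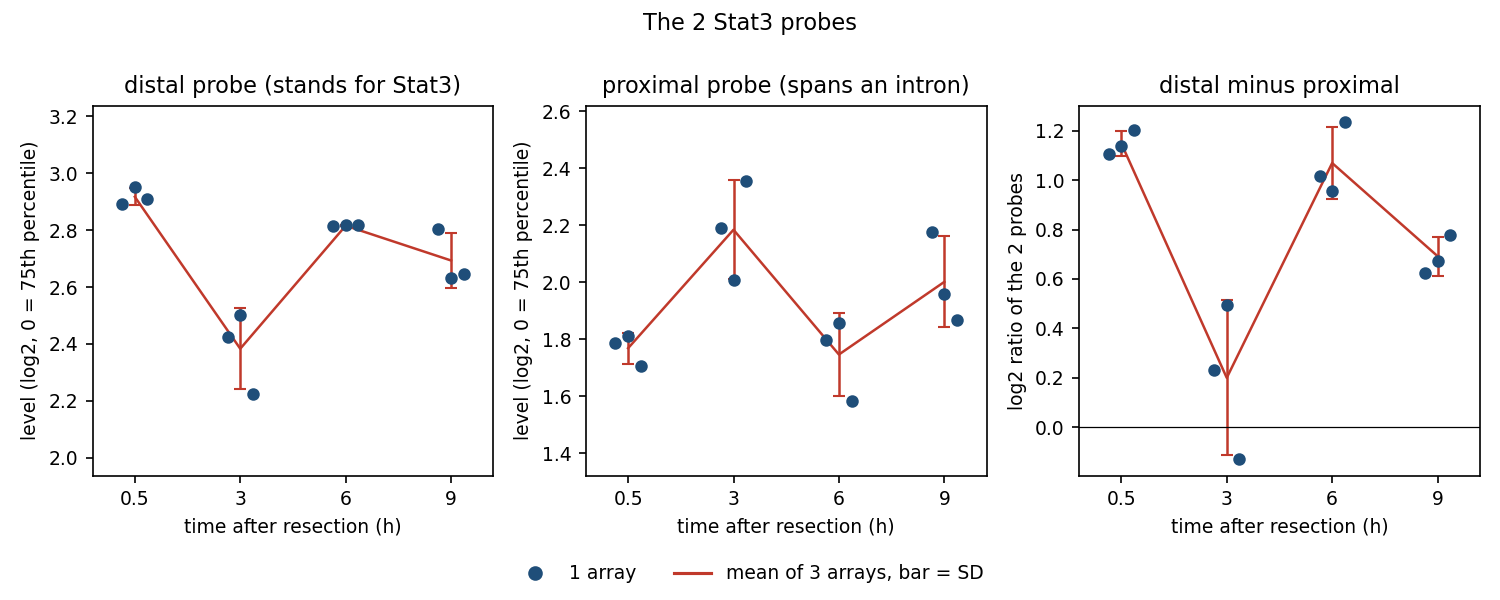
Levels of the distal and the proximal Stat3 probe (log2, vertical axis) and their log2 ratio at the 4 times (h, evenly spaced), with 1 point per array and the mean of 3 arrays with its SD. At 3 h the distal probe was lowest and the proximal probe highest, and the ratio was 0.20, against 1.15 at 0.5 h.

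The genes most like Stat3 over the 12 arrays were taken from 11291 named genes detected on all 12 arrays, each centred on its own mean. Abce1, a ribosome recycling factor, differed from the distal Stat3 probe by a root mean square of 0.04 log2 units, and Evl, a regulator of actin assembly, by 0.06. Their levels were likewise lowest at 3 h, at 2.61 for Abce1 and 1.88 for Evl. This is a description of array signals and was not tested.

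Other genes of the pathway were read from a list of 33, of which 28 were tested. Il11 and Osm, ligands of the family, were on the array but not well above background at any time on all arrays, and Il27, Il31 and Tyk2 were not found under these names. Between 9 h and 6 h, 7 of the 28 were called higher and none lower, beside 19.1% of all genes called higher and 5.94% lower. Between 9 h and 0.5 h, 9 were called higher and 2 lower, beside 22.4% and 10.9% of all genes. The step from 3 h gave 5 higher and 2 lower at 9 h, beside 16.6% and 6.61%. Of the earlier comparisons, 3 h with 0.5 h gave 1 higher and 4 lower (10.7% and 12.5% of all genes), 6 h with 0.5 h gave 1 higher and 1 lower (4.01% and 9.43%), and 6 h with 3 h gave none higher and 2 lower (5.71% and 5.58%). The median log2 difference of the 28 was 0.12 between 9 h and 6 h, 0.21 between 9 h and 3 h and 0.07 between 9 h and 0.5 h, where all genes had medians of 0.11, 0.08 and 0.10. Over 26 alternatives, 0 to 10 were called higher and 0 to 3 lower between 9 h and 6 h. Median scaling gave 4 higher and 3 lower there, 5 and 5 between 9 h and 0.5 h, and 3 and 5 between 9 h and 3 h.

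Among the 8 inhibitors tested, the feedback inhibitors Socs3, Socs1 and Cish were each called higher at 9 h than at every earlier time. Socs3 had levels of -2.99, -3.20 and -2.89 at 0.5 h, -3.58, -3.62 and -3.23 at 3 h, -3.26, -2.98 and -3.38 at 6 h, and -2.30, -2.06 and -2.05 at 9 h. Every 9 h array lay above all others. The difference was 1.07 at 9 h versus 6 h (SE 0.14, limma adjusted p = 0.000359) and 1.34 at 9 h versus 3 h (SE 0.14, limma adjusted p = 0.000261). Socs1 was higher at 9 h by 1.00 versus 6 h (SE 0.11, limma adjusted p = 0.000119), and Cish by 0.66 (SE 0.13, limma adjusted p = 0.00445). The Cish calls at 9 h relative to 0.5 h (0.43) and 3 h (0.46) were each lost under 9 of 26 alternatives. Normexp background correction ended all 9 h calls of Socs3, Socs1, Cish and Il27ra. With its local background capped, an alternative chosen after seeing the data, only the Cish calls versus 0.5 h and 3 h were lost. The lymphocyte and neutrophil markers given beside Il6 were also higher on all 9 h arrays than on all 3 h arrays, and their part in these 4 genes was not tested. Socs3 was also called lower at 3 h versus 0.5 h, by -0.45 (limma adjusted p = 0.0456), a call lost under 13 of 26 alternatives. Of the other inhibitors, the phosphatase gene Ptpn2 was called higher at 9 h versus 3 h (0.30) and Ptpn1 lower at 6 h versus 3 h (-0.39), where a second Ptpn1 probe had the opposite sign.

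Il27ra, the receptor for interleukin-27, was higher at 9 h than at 6 h by 1.12 (SE 0.17, limma adjusted p = 0.000764), with mean levels of -1.96 ± 0.19 and -3.08 ± 0.18 (SD, n = 3 each). Its arrays at 9 h did not overlap with any earlier time. Il11ra1, the interleukin-11 receptor, was higher at 9 h versus 0.5 h by 0.32 (limma adjusted p = 0.00322), and Ebi3, a subunit of interleukin-27, was higher at 9 h by 0.29 versus 6 h and 0.27 versus 0.5 h. Ctf2, neuropoietin in mice, was lower at 3 h versus 0.5 h by -0.58 (limma adjusted p = 0.00693).

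The kinases and adaptors did not move as 1 group. Jak2, a kinase that phosphorylates the receptor chains, was higher than at 0.5 h by 0.27 at 3 h and 0.26 at 9 h. Jak1, the kinase most closely tied to gp130, was lower at 9 h by -0.20 versus 0.5 h and -0.29 versus 3 h, and Jak3 was lower at 3 h versus 0.5 h by -0.41. Ptpn11, the phosphatase SHP2 that binds gp130, was lower at 6 h versus 3 h by -0.67 (SE 0.09, limma adjusted p = 0.000983) and at 9 h versus 3 h by -0.62 (SE 0.09, limma adjusted p = 0.000893). It was also lower than at 0.5 h at 6 h (-0.44) and at 9 h (-0.38). The adaptor Grb2 was higher at 9 h by 0.37 versus 6 h and 0.36 versus 0.5 h, with a second probe of opposite sign versus 6 h. Sos1, which Grb2 recruits, was lower at 3 h versus 0.5 h by -0.29, again with a second probe of opposite sign, a call lost under 14 of 26 alternatives.

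Among other STAT genes, Stat4 and Stat5b were called. Stat4 was higher than at 0.5 h by 0.57 at 6 h (limma adjusted p = 0.0168) and 0.56 at 9 h (0.00736), and no 0.5 h array showed it well above background. It passed the detection filter only through the later times, so these p-values are not independent of that filter. The calls were lost under 5 and 4 of 25 alternatives. At 9 h these were quantile and cyclic loess scaling and normexp with and without the cap, with a lowest difference of 0.09. Stat5b was higher at 9 h versus 6 h by 0.27 (limma adjusted p = 0.047), a call lost under 15 of 26 alternatives. In all, 17 of the 28 pathway genes were called in at least 1 of the 6 comparisons.

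**Figure D4:**
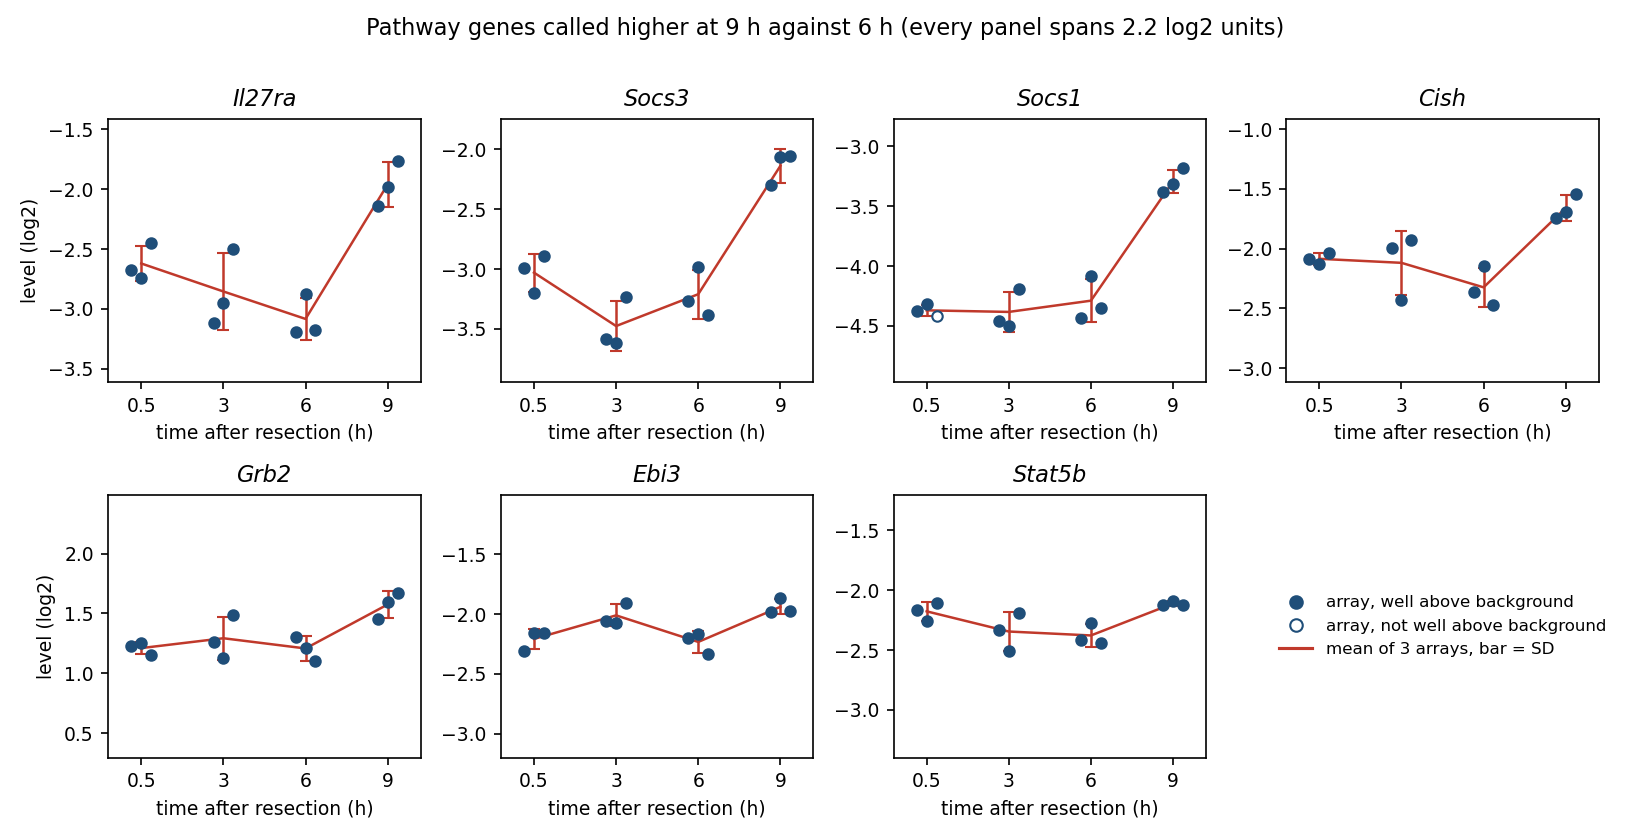
Levels (log2, vertical axis) of the 7 pathway genes called higher at 9 h versus 6 h, at the 4 times (h, evenly spaced), with 1 point per array and the mean of 3 arrays with its SD. The 9 h points lie above the 6 h points, with differences from 1.12 for Il27ra to 0.27 for Stat5b.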

How the data were processed

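Total RNA of dorsal root ganglia was amplified and labelled with Cy3, per the labels' protocols, and read on Agilent arrays, per the file headers. The intensity values deposited by the authors are background-subtracted signals per spot on a linear scale, per the file headers. The deposited series table held the same values on all 12 arrays. How the authors scaled arrays against each other is not stated in the labels or headers.

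From these values, control spots and spots that the scanner software marked as outliers (76 to 218 per array) were left out, log2 was taken and the 75th percentile of each array subtracted. No spot was saturated. Spots of a probe were averaged, and a probe counted as well above background on an array where over 0.5 of its spots did. Of 41012 probes, 34836 passed a detection filter, which asked for all 3 arrays of some time. The brightest passing probe stood for its gene, which gave 29622 genes. Gene names and rn4 positions are those of the files, and current symbols come from RefSeq (GRCr8).

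Group means of the 12 arrays were fitted in limma 3.58.1 (R 4.3.3, lmFit and eBayes), with Benjamini-Hochberg adjustment per comparison. Calls are at an adjusted p under 0.05. In arrays simulated for 9 h versus 6 h over 29443 genes, the fit recovered 71 of 100 genes changed by 1 log2 unit and 43 of 100 changed by 0.5. No other genes were changed, and the noise was independent with no slide effect. In the data 25.1% of all genes were called between these times, so these rates need not hold there. The number of arrays, 3 per time, limits precision. The text names the 10 members, called genes of a pathway list, at most 6 called genes per comparison of a STAT3 target list (those with no overlap between arrays), and the 2 genes most like a called member detected on every array. Members and lists were chosen with earlier results of these data known. Replicate numbers were not treated as pairs in the main fit. Same-numbered arrays of 2 times had correlations of -0.13 to 0.22 in their deviations from the group means, with 3 of 18 over 0.1. With 3 arrays per time these values cannot decide whether the samples were paired. Alternatives covered background correction, scaling, probe filters, probe choice, the variance model, replicate and slide blocks, and leaving out each array.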

Additional observations from a re-analysis of the deposited data

How the results depend on the processing

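The numbers of called members depended on the processing, and the Il6 difference of 9 h from 6 h and 3 h kept its sign in every alternative that gave a value. In the order 3, 6 and 9 h versus 0.5 h, 6 h versus 3 h, 9 h versus 6 h, 9 h versus 3 h and the F test (limma), 2, 1, 2, 1, 2, 2 and 3 of the 10 members were called. Normexp background correction gave 1, 0, 0, 0, 0, 0 and 0. On 3 arrays a few spots had a local background far above the rest, up to 26874 against a median of 41, and only 684 genes were then called by the F test. With the local background capped at 3 medians of its array, an alternative chosen after seeing the data, 13130 genes were called, against 13085 without normexp, and the member counts were 1, 0, 1, 1, 1, 2 and 2.

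Quantile scaling gave 1 at 3 h and 0 at 6 h versus 0.5 h, beside 6947 and 3915 of the 29622 genes. Median scaling gave 4 at 3 h versus 0.5 h (2 higher, 2 lower), 4 at 9 h versus 3 h (1 higher, 3 lower) and 5 by the F test. Of all genes it called 7602, 10064 and 14926 there, against 6874, 6878 and 13085. It moved the median of all genes at 9 h versus 6 h to -0.10, against 0.11. Cyclic loess gave 4 at 9 h versus 0.5 h and 1 at 9 h versus 6 h, beside 10982 and 6692 of all genes. Without a filter 1 was called at 9 h versus 0.5 h. With only probes detected on all 12 arrays, where 8 members remain, 1, 0, 1, 0 and 1 were called in the comparisons other than 6 h versus 3 h, and 1 by the F test; a common detection floor gave the same counts, and gave Il6 no value, since all its arrays lay at the floor. The mean of a gene's probes gave 1 at 3 h and 1 at 9 h versus 0.5 h, 0 at 6 h versus 3 h and 1 at 9 h versus 3 h. Fits of only the compared arrays gave 0 at 9 h versus 0.5 h and 1 at 9 h versus 3 h. The replicate block gave 1 at 9 h and 3 at 3 h versus 0.5 h (1 higher, Cntfr), and left the other 5 counts as they were. Slide as a random block, with an estimated correlation of -0.26, gave 4, 2, 4 and 4 in the first 4 comparisons, 6 at 9 h versus 3 h and 6 by the F test. Of the 29622 genes this setting called 14171, 9136, 16892 and 8519, then 13737 and 21904. The fit without it called 6874, 3980, 9861, 3342, 6878 and 13085, so calls of all genes rose as well. Leaving out 1 array gave 1 to 2, 0 to 1, 1 to 2, 1 to 1, 1 to 3, 1 to 3 and 3 to 4.

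Il6 turned positive at 3 h versus 0.5 h under quantile (0.70) and cyclic loess scaling (0.12), and at 6 h versus 0.5 h under these (0.58 and 0.089) and normexp (0.72). Stat3 by the mean of its probes was 0.0046 at 9 h versus 0.5 h and -0.0031 at 6 h versus 3 h, and by the proximal probe 0.42, 0.23, -0.44 and -0.18 at 3 h and 9 h versus 0.5 h and at 6 h and 9 h versus 3 h. The cause was not tested.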

Other observations

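Of a list of 28 known STAT3 target and acute phase genes, 26 were tested. Between 9 h and 0.5 h, 7 were called higher and none lower, beside 22.4% of all genes called higher and 10.9% lower, and between 9 h and 3 h it was again 7 higher and none lower, beside 16.6% and 6.61%. Between 9 h and 6 h, 3 were called higher and none lower, beside 19.1% and 5.94%. Socs3, which the pathway list also holds, was among the genes called higher in each of these 3 comparisons. The median log2 difference of the list was 0.27 between 6 h and 0.5 h, 0.24 between 9 h and 0.5 h and 0.06 between 9 h and 6 h, where all genes had -0.04, 0.10 and 0.11. Over 26 alternatives 2 to 13 were called higher and none lower between 9 h and 0.5 h, and 1 to 11 higher and 0 to 4 lower between 9 h and 3 h, with 5 higher and 4 lower under median scaling. Reg3b, a secreted protein of injured sensory neurons, was higher at 9 h by 1.65 versus 0.5 h (SE 0.27, limma adjusted p = 0.00182) and by 1.15 versus 6 h (SE 0.27, limma adjusted p = 0.0117). The transcription factor genes Irf1, Junb and Cebpb were higher at 9 h versus 0.5 h by 0.87, 0.67 and 0.58. Serpina3n, an acute phase protease inhibitor, was higher by 1.38 (SE 0.47, limma adjusted p = 0.0476), a call lost under 14 of 26 alternatives.

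Between 3 h and 0.5 h, 1 of the 26 was called higher and 3 lower, beside 10.7% and 12.5% of all genes. Cebpb was higher by 0.72 (SE 0.09, limma adjusted p = 5e-04), and the cell cycle gene Ccnd1 was lower by -0.62 (SE 0.13, limma adjusted p = 0.00956). Ccnd1 was then higher at 6 h versus 3 h by 0.69 (limma adjusted p = 0.00979), and both of its probes had the same sign in each comparison. Hif1a, lower at 3 h by -0.29, had a second probe of opposite sign. Between 6 h and 3 h Icam1, an adhesion molecule for white blood cells, was higher by 0.58 (limma adjusted p = 0.0257).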
